A study of Mus musculus with 6 samples.

Results

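The mouse genes named Zfp with a number form one of the largest groups of gene symbols in the genome, and most of them encode proteins with C2H2 zinc fingers, short loops folded around a zinc ion. Many of these proteins also carry a KRAB box, which recruits the co-repressor Trim28 and, through it, the histone methyltransferase Setdb1, so that the DNA the fingers bind is silenced; retrotransposons and imprinted regions are the best known targets. Others act without a KRAB box, in transcription, RNA decay, translation or protein turnover, and a few share the name without having C2H2 fingers. The genes described here are those whose symbol is Zfp followed only by digits, without Zfp42, and whose mean expected count over the 6 libraries was at least 20. They number 188 of 331 numbered Zfp genes, out of 20325 genes in the files. Since they were chosen by their measured expected counts, their levels are a description and were not tested.

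RNA sequencing had been done on 2 mouse lines of pre-iPSCs, cells stopped part of the way through reprogramming, called pre3 and pre2-2. Their founders were fibroblasts from the OG2 mouse strain, in which the Pou5f1 promoter drives green fluorescent protein, on a mixed background of 129SVJ (1/2), C57B6 (3/8) and CBA (1/8). Each line, at passage 10, was transfected with an siRNA against the 5-methylcytosine dioxygenase Tet1 (siTet1), transfected with a control siRNA, or left untransfected, and all 6 samples were kept in embryonic stem cell medium with LIF and vitamin C at 50 µg/ml. Every combination gave 1 library, so each treatment had 2 libraries, 1 per line, and each line had 3. The series description puts the vitamin C 16 h after transfection and the RNA 32 h after that, but the descriptions of single samples put RNA at 48 h and give 36 h of vitamin C. The sample labels also name the source as MEFs, embryonic fibroblasts, and give no age for the animals. One label field of the siTet1 samples reads Tet siRNA, while their titles and descriptions name Tet1, which is followed here. Nothing says that a line's 3 libraries were grown as separate cultures. The p-values rest on the spread that line and treatment leave unexplained in these libraries, which may be technical. Any response that differs between the lines also enters that spread. Each gene's spread was estimated largely from the other genes.

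Library totals were 1868640 to 2582803 expected counts, so that 3 counts, taken as the floor, equal 1.17 to 1.60 CPM. CPM here is the count of a gene scaled by TMM to the total of the genes tested, and TPM is the deposited share of transcripts rescaled, which sums to the same total in every library. Tet1 itself was at 159 (siTet1), 251 (control siRNA) and 205 CPM (untransfected) in pre3, and at 154, 246 and 250 CPM in the same order in pre2-2. Its log2 difference was -0.67 for siTet1 against control siRNA (SE 0.13, edgeR adjusted p = 0.0043), so the labelled knockdown was visible in both lines. The lines differed in cell-type markers. In pre3 the fibroblast list of 9 genes summed to 925 to 1197 CPM, against 1795 to 4096 CPM in pre2-2, and 9 of 9 were called lower in pre3. The pluripotent list of 10 genes summed to 6911 to 7994 CPM in pre3, against 2072 to 2621 CPM in pre2-2. These sums mostly follow Pou5f1, at 1042 to 6619 CPM over the 6 libraries. No other gene of the list exceeded 935 CPM, and the list was mixed. Of its 6 genes tested, 3 were called higher in pre3, among them Pou5f1 at 2.45 on the log2 scale (edgeR adjusted p = 6.69e-20), and 2 lower (Utf1 and Fgf4), with a median log2 difference of 0.13. Dppa3 was at 0 in every library, and neither Nanog, Esrrb nor Zfp42 exceeded 5.85 CPM in any library. Endothelial markers summed to 26.6 to 33.6 CPM in pre3, against 77.9 to 103 CPM in pre2-2, with Cdh5 at or under 2.05 CPM, and macrophage markers stayed at 5.06 to 11.3 CPM. Fewer cells of a type and less RNA per cell cannot be told apart in such bulk samples.

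The numbered Zfp genes spread over a wide range of counts. Among the 143 below the threshold, 6 (Zfp641, Zfp663, Zfp474, Zfp541, Zfp366 and Zfp831) had no count in any library and the other 137 had some. Of the 188 above it, 93 had a mean count from 20 to under 50, 52 from 50 to under 100, 24 from 100 to under 200 and 19 of 200 or more. The median of the mean counts was 50.7. Of all genes tested, 2261, 2416, 2333 and 2551 fell in these ranges, in the same order. Just inside the threshold were Zfp606 with a mean count of 20.7, Zfp53 with 20.5 and Zfp300 with 20.2, and just outside it were Zfp81 with 19.8, Zfp239 with 19.7 and Zfp52 with 19.6. All 188 had counts in every library and all passed the filter on low counts used for testing. Together they made up 0.925% of the genes in the files but took 0.749 to 0.789% of the counts and 0.391 to 0.462% of the transcripts of a library. The share of their expected counts that were not whole, a sign of reads divided between similar transcripts, was 43.1 to 46.8% per library, against 28.1 to 31.0% over all genes with a count in that library, at a tolerance of 0.005. The 188 genes were chosen by their counts, whereas the other share takes in genes with very few reads. The part of that choice in this gap was not tested.

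Per length, the mean TPM of the 188 genes had a median of 14.1, with quartiles at 8.78 and 26.7. The range ran from 3.73 TPM for Zfp329 to 198 TPM for Zfp57, 18 genes reached 50 TPM and 58 stayed below 10. Zfp57, the KRAB protein that keeps DNA methylation on imprinted regions, was at 153 to 259 TPM over the 6 libraries. Zfp207, also known as BuGZ and needed for spindle assembly, was at 170 to 202 TPM. The next in order of mean TPM were Zfp36 (84.0 to 182 TPM), Zfp706 (93.5 to 127 TPM), Zfp106 (83.4 to 120 TPM) and Zfp277 (74.6 to 123 TPM). The ranges of Zfp57 and Zfp207 overlapped, as did those of the other 4, so neighbours in this order are not separated by more than their spread over libraries. By counts not divided by length, the 8 highest means belonged to Zfp106, Zfp706, Zfp207, Zfp57, Zfp704, Zfp488, Zfp91 and Zfp353.

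Most of the 188 genes stayed under a ratio of 2 between libraries. The ratio of the highest to the lowest CPM over the 6 libraries had a median of 1.60. It was under 1.5 for 73 genes and under 2 for 152. Ratios were not computed for all genes, so whether these are small for such counts was not tested. The steadiest was Zfp646, at 38.8 to 43.6 CPM, a ratio of 1.12. Zfp410, which activates the gene for the NuRD helicase Chd4, followed at 43.9 to 50.6 CPM. Only 7 genes reached a ratio of 3. These were Zfp703 (5.88), Zfp423 (4.80), Zfp606 (4.49), Zfp395 (3.62), Zfp319 (3.27), Zfp53 (3.22) and Zfp9 (3.18). Of these 7, Zfp606 and Zfp53 lay just inside the count threshold.

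**Figure D1:**
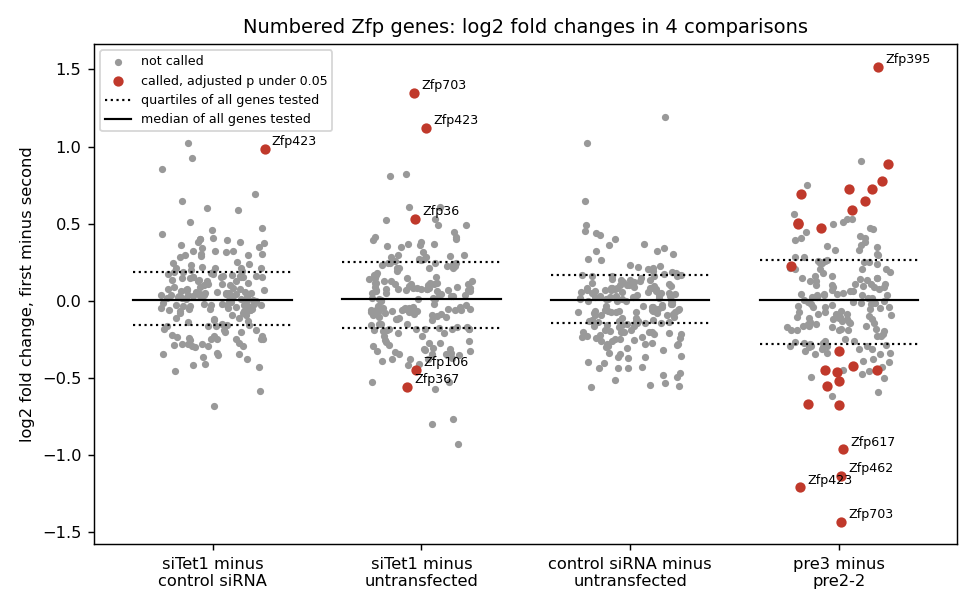
Log2 differences of the 188 numbered Zfp genes in 4 comparisons (vertical axis, edgeR, log2 scale), 1 point per gene, with genes called at an adjusted p under 0.05 in red and black lines at the median and quartiles of all 11048 genes tested. The medians of the Zfp genes lie between -0.04 and 0.04, and the called genes number 1 for siTet1 against control siRNA, 0 for control siRNA against untransfected, 5 for siTet1 against untransfected and 25 for pre3 against pre2-2.

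The comparison the series title names is siTet1 against control siRNA, and here 1 of the 188 genes was called, Zfp423, which rose. That is 0.532% of the genes, against 1.58% of all 11048 genes tested (1.15% higher and 0.434% lower in siTet1). Zfp423 is a zinc finger cofactor of Smad and other transcription factors, known in mice for commitment of fibroblast-like precursors to the fat lineage. The median log2 difference over the 188 genes was 0.04, with quartiles at -0.11 and 0.18, beside 0.00 over all genes tested, with quartiles at -0.16 and 0.18. At an unadjusted p under 0.05 were 14 of the 188 genes (7.45%), against 10.8% of all genes. DESeq2 and limma each called 0 of the 188. The edgeR count was 0 without the pre2-2 siTet1 or the pre2-2 control library, and 7 without either untransfected library. Fitted to the 4 siTet1 and control libraries alone, with the line as a block, it was also 7 (Zfp106, Zfp36, Zfp423, Zfp532, Zfp706, Zfp808 and Zfp97). The fits without an untransfected library repeat this one, since the remaining untransfected library is fitted exactly. With no block for the line, on all 6 libraries, the count was 0.

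Zfp423 was at 18.6 (siTet1), 12.8 (control siRNA) and 11.8 CPM (untransfected) in pre3, and at 56.7, 24.3 and 22.1 CPM in the same order in pre2-2. In both lines the siTet1 library was the highest, and every pre2-2 library was above every pre3 library. The log2 difference was 0.98 for siTet1 against control siRNA (SE 0.25, edgeR adjusted p = 0.0385) and 1.12 for siTet1 against untransfected (SE 0.24, edgeR adjusted p = 0.00471). These comparisons share the siTet1 libraries. Without the pre2-2 siTet1 library the first was 0.54 (adjusted p = 1.00) and the second 0.66 (adjusted p = 0.692). The first call also ended without the pre2-2 control library (0.72, adjusted p = 0.803) and without the pre3 control library (1.1, adjusted p = 0.0570), and the second without the pre2-2 untransfected library (0.84, adjusted p = 0.273). The siTet1 libraries also differed from their controls in marker genes. The fibroblast list summed to 1197 (siTet1), 1095 (control siRNA) and 925 CPM (untransfected) in pre3, and to 3482, 4096 and 1795 CPM in pre2-2. Of its 9 genes, 1 was called higher in siTet1 against control siRNA and 5 against untransfected cells. The interferon list summed to 70.7 (siTet1), 144 (control siRNA) and 16.4 CPM (untransfected) in pre3, and to 205, 660 and 73.8 CPM in pre2-2. Of its 7 genes tested, 7 were lower in siTet1 against control siRNA, with a median log2 difference of -1.87, and 6 were higher against untransfected cells. In the pluripotent list 2 of 6, Dppa5a and Tdgf1, were higher in siTet1 in both comparisons. The part of these markers in the Zfp423 difference was not tested.

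Against untransfected cells, 5 of the 188 genes were called in siTet1 (2.66%), of which 3 rose and 2 fell, beside 6.55% of all genes tested (4.92% higher and 1.63% lower). The genes that rose were Zfp423, Zfp703 and Zfp36, and those that fell were Zfp106 and Zfp367. No KRAB A box was found in any of the 5. The median log2 difference over the 188 genes was 0.01, as it was over all genes, with quartiles at -0.18 and 0.17 for the Zfp genes and -0.18 and 0.25 for all genes. At an unadjusted p under 0.05 were 16 of the 188 genes, against 19.5% of all genes. DESeq2 called none of the 188 in this comparison and limma 3. The edgeR count was 0 without the pre2-2 siTet1 library, 1 without the pre2-2 untransfected library, 3 without the pre3 control library and 13 without the pre3 untransfected library; with no block for the line it was 0.

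The promoters of called genes are shown because Tet1 oxidises methylated cytosines in CG pairs, although no methylation was measured here. The 5 genes called in siTet1 were looked up in the RefSeq promoter table, build GRCm38.p6, which covers 250 bases before to 50 after each transcription start, and 4 of them had entries. The sequences are written 5′ to 3′ on the strand of the gene, with each CG pair in capitals. Zfp423 has 2 listed starts, at chr8:87804390-87804689 and chr8:87959546-87959845, both on the minus strand.
Zfp423, first: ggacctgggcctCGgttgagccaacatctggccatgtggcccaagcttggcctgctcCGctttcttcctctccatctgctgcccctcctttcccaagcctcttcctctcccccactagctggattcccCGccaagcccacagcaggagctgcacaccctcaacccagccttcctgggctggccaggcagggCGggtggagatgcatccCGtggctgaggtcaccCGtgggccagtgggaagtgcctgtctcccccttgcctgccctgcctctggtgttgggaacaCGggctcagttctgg
Zfp423, second: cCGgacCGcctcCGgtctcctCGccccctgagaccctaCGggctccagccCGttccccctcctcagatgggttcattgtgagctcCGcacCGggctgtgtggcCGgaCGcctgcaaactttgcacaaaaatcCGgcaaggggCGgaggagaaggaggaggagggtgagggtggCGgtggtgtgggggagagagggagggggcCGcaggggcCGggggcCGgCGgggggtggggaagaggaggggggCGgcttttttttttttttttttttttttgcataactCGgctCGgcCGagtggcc
The first holds 7 CG pairs, a number that 52.1% of the 32851 promoters in the table reach or exceed, and the second holds 21, reached by 24.8%. Zfp36 lies at chr7:28379179-28379478 and Zfp106 at chr2:120563810-120564109, both on the minus strand.
Zfp36: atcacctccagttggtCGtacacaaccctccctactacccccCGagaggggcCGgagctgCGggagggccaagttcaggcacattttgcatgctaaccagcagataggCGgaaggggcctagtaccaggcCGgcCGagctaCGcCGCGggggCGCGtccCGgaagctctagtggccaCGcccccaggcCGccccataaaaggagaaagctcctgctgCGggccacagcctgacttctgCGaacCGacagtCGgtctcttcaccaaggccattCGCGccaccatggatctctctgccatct
Zfp106: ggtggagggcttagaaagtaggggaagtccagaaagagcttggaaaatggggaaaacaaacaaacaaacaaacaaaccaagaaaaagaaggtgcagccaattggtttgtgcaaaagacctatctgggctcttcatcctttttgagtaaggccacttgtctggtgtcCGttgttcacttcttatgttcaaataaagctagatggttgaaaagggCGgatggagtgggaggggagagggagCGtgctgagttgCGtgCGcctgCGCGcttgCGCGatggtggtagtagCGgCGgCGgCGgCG
Zfp36 has 21 CG pairs and Zfp106 has 14, a number that 36.3% of all promoters reach. The remaining gene, Zfp367, has 2 listed starts on the minus strand, at chr13:64152324-64152623 with 31 CG pairs and at chr13:64153150-64153449 with 36, reached by 10.6 and 6.23% of all promoters.
Zfp367, first: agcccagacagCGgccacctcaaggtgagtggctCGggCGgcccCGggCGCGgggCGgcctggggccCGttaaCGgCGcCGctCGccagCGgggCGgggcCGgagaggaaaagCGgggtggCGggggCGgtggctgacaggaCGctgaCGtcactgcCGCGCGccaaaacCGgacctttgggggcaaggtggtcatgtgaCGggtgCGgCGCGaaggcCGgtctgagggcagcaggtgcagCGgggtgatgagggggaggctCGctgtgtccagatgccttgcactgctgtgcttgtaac
Zfp367, second: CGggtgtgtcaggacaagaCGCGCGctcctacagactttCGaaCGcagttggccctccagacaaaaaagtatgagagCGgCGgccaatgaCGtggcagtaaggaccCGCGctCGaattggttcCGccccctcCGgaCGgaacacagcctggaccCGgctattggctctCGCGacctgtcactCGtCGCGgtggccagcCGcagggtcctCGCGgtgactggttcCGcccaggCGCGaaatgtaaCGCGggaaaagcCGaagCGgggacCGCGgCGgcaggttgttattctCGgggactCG
The letters GGGCGG, the GC box read on either strand, occur in each of the 6 windows. Over the 188 genes, 196 promoters of 152 genes were listed, with a median of 16 CG pairs (quartiles 9 and 24), beside 7 (quartiles 3 and 20) for all promoters in the table. GGGCGG was in 49.5% of the Zfp promoters and in 35.7% of all of them. The 188 genes were chosen by their counts and the promoters of the table were not. The part of that choice in these differences was not tested. The GC box can overlap the CG pairs counted, since it holds one.

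Zfp703, a corepressor whose human counterpart ZNF703 is amplified in breast cancer, was at 11.2 (siTet1), 6.93 (control siRNA) and 4.62 CPM (untransfected) in pre3, and at 27.2, 24.3 and 10.5 CPM in pre2-2. In both lines the siTet1 library was the highest and the untransfected one the lowest. The log2 difference of siTet1 from untransfected was 1.35 (SE 0.33, edgeR adjusted p = 0.0122), and that of control siRNA from untransfected was 1.03 (SE 0.34, edgeR adjusted p = 0.202), which was not called. Leaving out the pre2-2 siTet1 library gave 1.53 (adjusted p = 0.208) and leaving out the pre2-2 untransfected library gave 1.11 (adjusted p = 0.351). Zfp36 is tristetraprolin, a CCCH protein that binds AU-rich elements and speeds the decay of cytokine mRNAs. It was at 93.1 (siTet1), 73.6 (control siRNA) and 83.1 CPM (untransfected) in pre3, and at 152, 111 and 84.7 CPM in pre2-2. The order of control siRNA and untransfected differed between the lines, and siTet1 was highest in both. The difference from untransfected was 0.53 on the log2 scale (SE 0.16, edgeR adjusted p = 0.0409). It was 0.31 without the pre2-2 siTet1 library (adjusted p = 0.749), 0.19 without the pre2-2 untransfected library (adjusted p = 0.715) and 0.51 without the pre3 control library (adjusted p = 0.0599).

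Zfp106, an RNA-binding protein needed for motor neuron and muscle maintenance in mice, had the highest count of the group. It was at 415 (siTet1), 545 (control siRNA) and 553 CPM (untransfected) in pre3, and at 358, 436 and 499 CPM in pre2-2. The siTet1 library was the lowest in both lines, and the log2 difference from untransfected was -0.45 (SE 0.11, edgeR adjusted p = 0.00979). The size was the same without the pre2-2 or the pre3 siTet1 library (-0.45 and -0.44), but the adjusted p then became 0.219 and 0.124. Zfp367, a C2H2 transcription factor, was at 56.9 (siTet1), 80.5 (control siRNA) and 84.6 CPM (untransfected) in pre3, and at 32.3, 40.5 and 47.0 CPM in pre2-2. Here too siTet1 was the lowest in each line, and the difference from untransfected was -0.56 (SE 0.17, edgeR adjusted p = 0.0485). Its call was the least steady of the 5: it was kept in 3 of 14 alternative settings. The difference was -0.56 and -0.57 without the pre2-2 and the pre3 control library (adjusted p = 0.0639 and 0.0702), -0.60 and -0.51 without the pre2-2 and the pre3 siTet1 library (0.297 and 0.313), and -0.53 without the pre2-2 untransfected library (0.142). Under siTet1 against control siRNA neither Zfp106 (-0.34, edgeR adjusted p = 0.134) nor Zfp367 (-0.43, edgeR adjusted p = 0.340) passed the test. Zfp106 was called there, at -0.34, with the line as a block on the 4 siTet1 and control libraries alone (edgeR adjusted p = 0.000731). Its size was also -0.34 without either untransfected library. The remaining untransfected library is then fitted exactly, so this repeats the same fit.

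**Figure D2:**
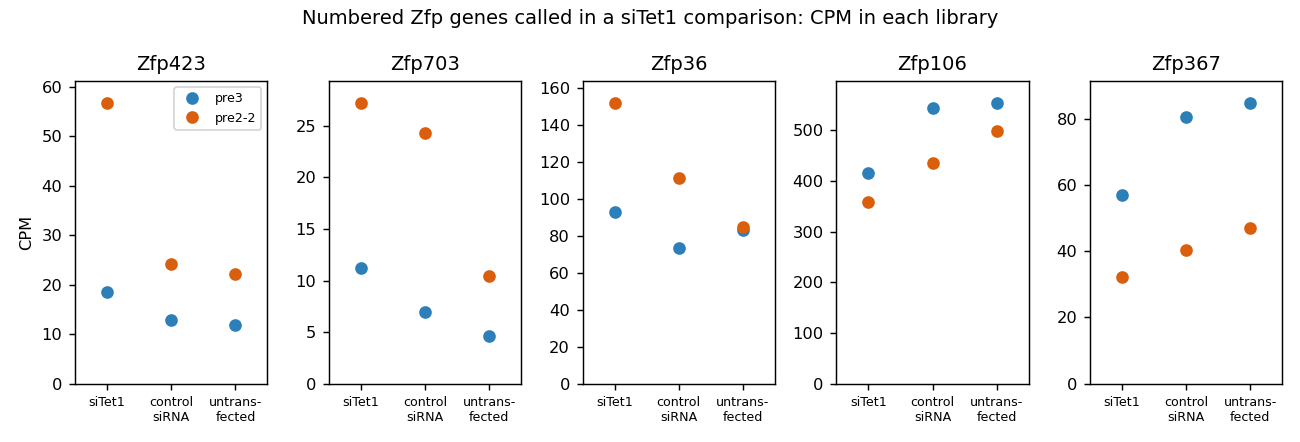
CPM of the 5 numbered Zfp genes called in siTet1 against untransfected cells, 1 panel per gene, with 1 point per library in each line and treatment (siTet1, control siRNA, untransfected). Zfp423, Zfp703 and Zfp36 are highest in the siTet1 library of each line, Zfp106 and Zfp367 lowest, and the siTet1 library of pre2-2 holds the highest point for the first 3.

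No numbered Zfp gene was called by edgeR between control siRNA and untransfected cells, where 1.48% of all genes were (1.38% higher and 0.0996% lower in control siRNA). At an unadjusted p under 0.05 were 7 of the 188 genes, against 9.20% of all genes. DESeq2 also called 0, with 1 gene at an unadjusted p under 0.05, and limma called 0, with 6. With edgeR, 1 gene was called without the pre3 control library and 2 without the pre3 untransfected library. The median log2 difference was -0.04, with quartiles at -0.20 and 0.10, beside 0.00 over all genes. In these libraries the interferon list did move: it gave 7 calls of 7 tested, all higher in control siRNA, with the sums given above. The largest Zfp difference was that of Zfp9, at 12.3 (control siRNA) and 8.21 CPM (untransfected) in pre3 and at 22.3 and 6.99 CPM in pre2-2. The log2 difference was 1.19 (SE 0.36, edgeR adjusted p = 0.115); it was called without the pre3 control library (1.59, adjusted p = 0.0405) and without the pre3 untransfected library (1.52, adjusted p = 0.00837). Among the 6 libraries the pre2-2 control library stood above the other 5, which lay between 6.99 and 12.3 CPM. Zfp703, given above, and Zfp933 (0.65, edgeR adjusted p = 0.570) were the other genes more than 1.5 interquartile ranges beyond the quartiles.

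By the same fence, 8 of the 188 genes stood out in siTet1 against control siRNA and 7 in siTet1 against untransfected, and most were not called. In the first, the uncalled ones with higher values in siTet1 were Zfp606 (1.03, edgeR adjusted p = 0.363), Zfp97 (0.93, 0.135), Zfp808 (0.85, 0.104), Zfp947 (0.69, 0.475) and Zfp651 (0.65, 0.317). Those with lower values were Zfp593, whose yeast counterpart Bud20 helps export 60S ribosomal subunits (-0.68, edgeR adjusted p = 0.313), and Zfp9 (-0.59, 0.563). Blocked by line on the 4 libraries compared, Zfp97 (0.92, edgeR adjusted p = 0.0191) and Zfp808 (0.86, 0.00710) were called. Without either untransfected library the sizes were also 0.92 and 0.86. The remaining untransfected library is then fitted exactly, so this repeats the same fit and is no separate support. Zfp808 was also called without the pre3 control library (1.23, adjusted p = 0.0453). In the second comparison, Zfp97 (0.82, edgeR adjusted p = 0.0827), Zfp651 (0.81, 0.0592), Zfp53 (-0.93, 0.171), Zfp839 (-0.80, 0.0736) and Zfp599 (-0.76, 0.237) missed the threshold. Zfp97 was at 27.7 (siTet1), 10.1 (control siRNA) and 13.3 CPM (untransfected) in pre3 and at 21.1, 15.2 and 14 CPM in pre2-2, so the siTet1 library was highest in both lines. Of its 50-base words, 80.2% also occur in Zfp960, so the split of reads between these genes is uncertain. Zfp960 was at 31.9 (siTet1), 43.7 (control siRNA) and 34.9 CPM (untransfected) in pre3 and at 35.6, 22.3 and 31.5 CPM in pre2-2. Zfp808 shares 34.1% of its words with other genes, mostly Zfp934, and was at 25.5 (siTet1), 19.2 (control siRNA) and 16.4 CPM (untransfected) in pre3 and at 40.7, 17.2 and 26.8 CPM in pre2-2. In pre2-2 its untransfected library lay above its control library and in pre3 below it.

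Within single lines, on the log2(CPM + 1) scale, the median difference of siTet1 from control siRNA over the 188 genes was -0.0028 in pre3 and 0.10 in pre2-2. It had the same sign in both lines for 92 of the 188 genes (48.9%), against 60.0% of all genes tested. For siTet1 against untransfected the same-sign share was 55.3%, against 60.1% of all genes. Control siRNA against untransfected gave 51.1%, against 52.3%. A difference of at least 1 in size for siTet1 against control siRNA was seen for 1 gene in pre3 (0.532%, against 3.86% of all genes) and for 4 in pre2-2 (2.13%, against 3.45%).

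With 1 library per line and treatment, a different treatment response in the lines could be tested only by pooling 2 treatments of each line. The siTet1 model pooled control siRNA with untransfected, and the transfection model pooled siTet1 with control siRNA. Differences between the pooled treatments therefore entered the error. The interaction of line with siTet1 called 0 of the 188 genes with edgeR, and 0 of all genes. It had 4 of the 188 at an unadjusted p under 0.05, namely Zfp46, Zfp781, Zfp532 and Zfp362 (2.13%, against 2.44% of all genes), and DESeq2 and limma also called 0. The interaction of line with transfection called 0 of the 188 with edgeR, beside 0.00905% of all genes, with 3 (Zfp110, Zfp819 and Zfp51) at an unadjusted p under 0.05 (1.60%, against 5.46% of all genes), and again 0 with DESeq2 and limma. For Zfp423, whose levels stood furthest apart in pre2-2, the line by siTet1 interaction had an unadjusted p of 0.121 in edgeR and an adjusted p of 1.00. With 2 residual degrees of freedom and 2 treatments pooled, small interactions were not detectable. The lack of calls among the 188 genes does not show that the lines responded alike.

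The comparison of the lines gave the most calls. Between pre3 and pre2-2, 25 of the 188 genes were called (13.3%), 12 higher and 13 lower in pre3, beside 30.2% of all genes tested (14.4% higher and 15.8% lower). The share at an unadjusted p under 0.05 was 23.4%, against 40.2%. Only 4 of the 188 (2.13%) had a log2 difference of at least 1 in size, against 11.0% of all genes. The 3 libraries of a line did not overlap for 55 of the 188 genes (29.3%; 28 with pre3 above and 27 below), against 37.0% of all genes. The medians of the log2 differences were -0.01 for the Zfp genes, with quartiles at -0.23 and 0.22, and 0.00 for all genes, with quartiles at -0.28 and 0.26.

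Depth goes with these shares, so they were split by mean expected count. From 20 to under 50 counts, 7 of 93 Zfp genes were called between the lines (7.53%), against 28.5% of all genes. From 50 to under 100 it was 7 of 52 (13.5%), against 28.4%, and from 100 to under 200 it was 4 of 24 (16.7%), against 30.8%. At 200 or more, 7 of 19 were called (36.8%), against 33.2%. The share was thus below that of all genes in the 3 lower ranges and not in the highest. The median size of the log2 difference was 0.26, 0.25, 0.13 and 0.18 for the Zfp genes from the lowest to the highest range, against 0.36, 0.28, 0.22 and 0.19 for all genes.

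**Figure D3:**
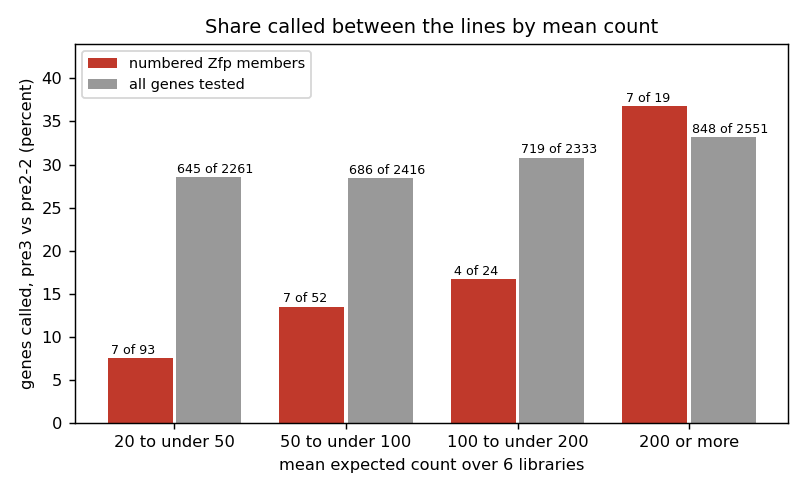
Percentage of genes called between pre3 and pre2-2 (vertical axis, from 0) in 4 ranges of mean expected count, for the numbered Zfp genes and for all genes tested. The Zfp share climbs from 7.53% in the lowest range to 36.8% in the highest, while that of all genes lies between 28.4 and 33.2%.

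The genes lower in pre3 were led by Zfp703 and Zfp423. For Zfp703 the log2 difference of pre3 from pre2-2 was -1.43 (SE 0.27, edgeR adjusted p = 0.000215) and for Zfp423 it was -1.21 (SE 0.21, edgeR adjusted p = 8.23e-05). Their values, given above, ran lower in pre3 within each treatment, though the pre3 siTet1 library of Zfp703 lay above the pre2-2 untransfected one. Zfp462, which binds the histone methyltransferase pair G9a and GLP and is needed to keep embryonic stem cells undifferentiated, was at 43.6 (siTet1), 48.0 (control siRNA) and 56.4 CPM (untransfected) in pre3, against 125, 90.1 and 112 CPM in pre2-2. The lines did not overlap, and the log2 difference was -1.13 (SE 0.14, edgeR adjusted p = 4.26e-07). Zfp617, a KRAB gene, was at 13.8, 18.1 and 14.4 CPM in pre3, against 36.5, 25.3 and 28.7 CPM in pre2-2, in the order siTet1, control siRNA, untransfected. It too did not overlap, with a log2 difference of -0.96 (SE 0.21, edgeR adjusted p = 0.00109). Fibroblast, endothelial and interferon lists were lower in pre3 as well, with 9 of 9, 3 of 3 and 7 of 7 tested genes called, whereas the pluripotent list had 3 of 6 higher and 2 lower. The part of these markers in the Zfp differences was not tested.

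Zfp57, the imprint guardian, was at 140, 144 and 144 CPM in pre3, against 222, 220 and 188 CPM in pre2-2, in the order siTet1, control siRNA, untransfected. The pre3 libraries lay within a narrow band below all 3 of pre2-2, and the log2 difference was -0.55 (SE 0.11, edgeR adjusted p = 0.000216). Zfp710 was at 36.7, 31.5 and 25.6 CPM in pre3, against 45.9, 48.6 and 54.0 CPM in pre2-2, a log2 difference of -0.67 (SE 0.17, edgeR adjusted p = 0.00358). Zfp353 had 114, 109 and 107 CPM in pre3, against 184, 150 and 142 CPM in pre2-2 (-0.52, SE 0.11, edgeR adjusted p = 0.000747). Zfp353 matched no gene in the RefSeq table and has no further annotation here. Zfp488, which promotes oligodendrocyte differentiation, was at 123, 107 and 127 CPM in pre3, against 177, 162 and 153 CPM in pre2-2 (-0.46, SE 0.11, edgeR adjusted p = 0.00221). None of these 4 overlapped between the lines. Zfp105 (-0.67, edgeR adjusted p = 0.0237) and Zfp36 (-0.45, edgeR adjusted p = 0.00978) complete the 10 largest. For Zfp36 the lines overlapped, since the pre3 siTet1 library at 93.1 CPM exceeded the pre2-2 untransfected library at 84.7 CPM. The 3 smaller calls were Zfp384, known to repress bone formation genes, Zfp644 and Zfp532.

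Zfp395 had the largest difference of all and was higher in pre3. Its human counterpart ZNF395 is known for binding the huntingtin promoter. It was at 49.5 (siTet1), 35.7 (control siRNA) and 45.6 CPM (untransfected) in pre3, against 15.9, 13.7 and 15.9 CPM in pre2-2. The lowest pre3 library was above the highest of pre2-2, and the log2 difference was 1.52 (SE 0.19, edgeR adjusted p = 5.25e-07). Zfp367, which fell in siTet1, was higher in pre3 than in pre2-2 in every treatment, by 0.89 on the log2 scale (SE 0.14, edgeR adjusted p = 2.15e-05). Zfp800 was at 26.1, 25.6 and 26.7 CPM in pre3, against 15, 14.2 and 16.3 CPM in pre2-2 (0.78, SE 0.21, edgeR adjusted p = 0.00519). For Zfp800 the libraries of each line lay close together and the lines did not overlap.

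Zfp692, whose human counterpart binds the AICAR response element, was at 45.7 (siTet1), 36.8 (control siRNA) and 48.7 CPM (untransfected) in pre3, against 19.7, 27.8 and 32.2 CPM in pre2-2 (0.72, SE 0.18, edgeR adjusted p = 0.00299). Zfp362 was at 54.8, 45.3 and 39.5 CPM in pre3, against 24.4, 33.9 and 30.3 CPM in pre2-2 (0.65, SE 0.18, edgeR adjusted p = 0.00619). Both had their widest gap between lines in the siTet1 libraries. The KRAB genes Zfp74 (0.72, edgeR adjusted p = 0.010), Zfp949 (0.69, 0.0115), Zfp655 (0.51, 0.0109) and Zfp948 (0.50, 0.0333) and the gene Zfp358 (0.59, 0.0382), in which no KRAB A box was found, complete the 10 largest on this side. Zfp704 and Zfp106 were the 2 smaller calls. A gene of high count can be called at a small difference: Zfp106 passed at 0.23 on the log2 scale.

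The count was 16 without the pre2-2 control library and 15 without the pre3 control library. With any 1 of the 6 libraries left out, 10 of the 25 genes were called each time. These were Zfp353, Zfp367, Zfp395, Zfp423, Zfp462, Zfp57, Zfp617, Zfp703, Zfp710 and Zfp800. DESeq2 called 10 genes, all among the 25 but not the same 10. It called neither Zfp710 nor Zfp800, but did call Zfp488 and Zfp704. Leaving out 1 library of a treatment leaves the other fitted exactly, so the line difference then rests on the other 4 libraries. Without either untransfected library Zfp105 was at -0.45 and -0.44 (adjusted p = 0.203 and 0.196) and Zfp358 at 0.31 in both cases. Without either siTet1 library Zfp36 was at -0.31 in both cases (adjusted p = 0.171 and 0.175), Zfp362 at 0.40 in both (0.185 and 0.198), Zfp692 at 0.51 in both, Zfp948 at 0.37 in both, Zfp532 at -0.14 in both, Zfp644 at -0.41 in both and Zfp106 at 0.23 in both, none of them called. Without the pre2-2 or the pre3 control siRNA library Zfp488 was at -0.40 and -0.38, Zfp36 at -0.38 and -0.36, Zfp532 at -0.41 and -0.39, Zfp644 at -0.45 and -0.43, Zfp74 at 0.56 and 0.58, Zfp949 at 0.53 and 0.55, Zfp358 at 0.62 and 0.64, Zfp948 at 0.57 and 0.59, Zfp704 at 0.37 and 0.40, Zfp106 at 0.18 and 0.20 and Zfp655 at 0.48 and 0.51, again none of them called. Among the fits with 1 library left out, Zfp384 lost its call only without the pre3 control library (-0.46). DESeq2 did not call Zfp384 either. No sign changed among the 25.

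**Figure D4:**
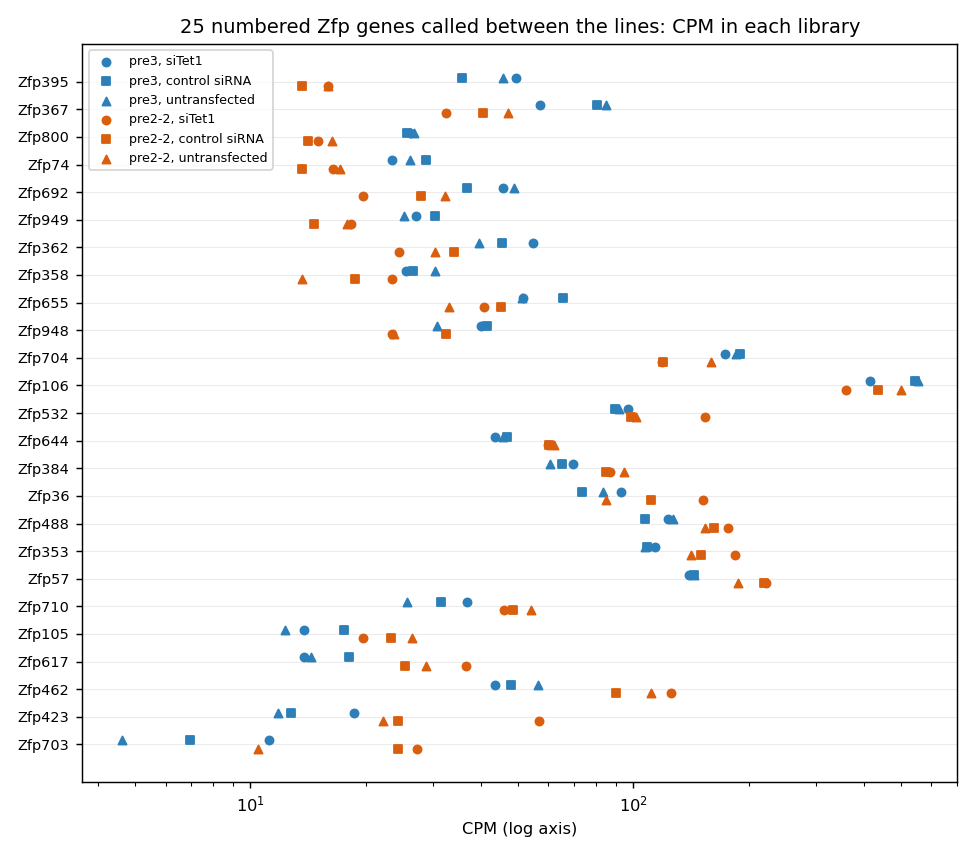
CPM (log axis) in each of the 6 libraries of the 25 numbered Zfp genes called between pre3 and pre2-2, ordered by their log2 difference, with pre3 and pre2-2 libraries in separate colours. Zfp395, at 35.7 to 49.5 CPM in pre3 and 13.7 to 15.9 CPM in pre2-2, and Zfp462, at 43.6 to 56.4 and 90.1 to 125 CPM, show the lines fully apart, whereas the libraries of Zfp36 and Zfp703 overlap.

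The KRAB box divides the numbered Zfp genes into classes with different median levels. A profile search of the encoded proteins found a KRAB A box in 83 of the 188 genes and none in 104, and 1 gene, Zfp353, had no protein to search. Of all numbered Zfp genes with a KRAB A box 44.1% passed the count threshold, against 73.2% of those without one. The KRAB genes had a median of 12 C2H2 finger patterns per protein, against 7 in the others, and a median mean TPM of 10.3, against 19.2. Zfp57, with 3 finger patterns, had the highest mean TPM of the KRAB genes. Zfp142 and Zfp462, both without a KRAB A box, had the most finger patterns, 34 each, and 8 of the 188 genes had none, among them Zfp36 and Zfp703. Between the lines, 6 of the 83 KRAB genes were called (7.23%), against 18 of the 104 others (17.3%), beside 30.2% of all genes tested. The KRAB genes also had lower counts, with a median mean count of 34.4, against 69.4, and the part of depth in these shares was not tested. The median size of the log2 difference between lines was 0.23 for the KRAB genes and 0.22 for the others. In siTet1 against untransfected the counts were 0 of 83 and 5 of 104, and against control siRNA 0 of 83 and 1 of 104.

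**Figure D5:**
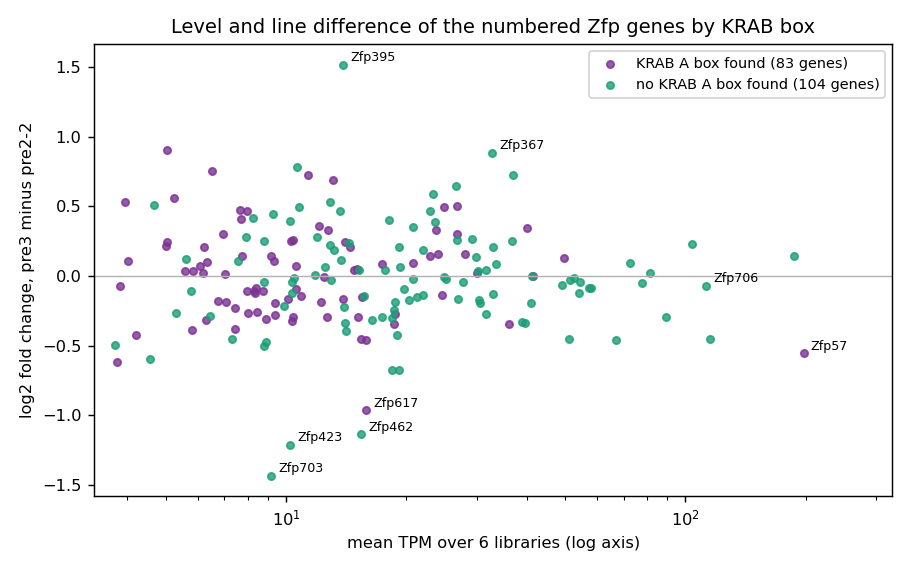
Mean TPM over 6 libraries (horizontal log axis) against the log2 difference of pre3 from pre2-2 (vertical axis) for the numbered Zfp genes, with KRAB genes and the others in separate colours. The KRAB genes, with a median of 10.3 TPM, lie mostly to the left of the others, with a median of 19.2 TPM, Zfp57 at 198 TPM is the furthest right, and both classes scatter about 0.

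KRAB zinc finger genes lie in tandem clusters in the mouse genome, and neighbours can share sequence. By gene order in the RefSeq table, 62 of the 188 genes fell in 23 runs of at least 3 numbered Zfp genes with no more than 2 other coding genes between neighbours. That held for 48 of the 83 KRAB genes (57.8%) and for 14 of the 104 others (13.5%). The runs with the most expressed members had 7 each. In the first, Zfp51, Zfp53, Zfp760, Zfp820, Zfp942, Zfp947 and Zfp948, all of them KRAB genes, had log2 differences between the lines of -0.18 to 0.75, and Zfp948 alone was called. In the second, Zfp146, Zfp260, Zfp27, Zfp568, Zfp74, Zfp790 and Zfp84 ranged over -0.17 to 0.72, and Zfp74 alone was called. A run of 4, Zfp111, Zfp180, Zfp61 and Zfp93, had values from -0.62 to -0.01, none called, and another, Zfp212, Zfp282, Zfp746 and Zfp777, had values from -0.19 to 0.36, none called. Of the 188 genes, 72 shared at least one 50-base word with another gene and 5 shared over 10% of theirs. These 5 were Zfp97, Zfp960, Zfp808, Zfp747 and Zfp937, all of them KRAB genes, and the main fit called none of them in any comparison. Zfp97 and Zfp808 were called for siTet1 against control siRNA under some alternatives. One of these was the line as a block on the siTet1 and control libraries alone.

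By known role, the KRAB genes tied to repeats and imprints gave no call between treatments. Zfp445, which acts with Zfp57 on imprinted regions, was at 119 to 142 CPM. Zfp568, which represses a placental transcript of Igf2, was at 68.2 to 98.8 CPM. The retrovirus silencers Zfp932 and Zfp809, the second of which binds the primer site of murine leukaemia virus, were at 44.3 to 58.5 and 11.2 to 16.7 CPM. Zfp708, also on that list, fell below the count threshold, at 0.937 to 3.19 CPM. Of the 5 above it, only Zfp57 was called, between lines, and it was lower in pre3.

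All 7 listed genes with a role in pluripotent cells passed the count threshold, beside 188 of all 331 numbered Zfp genes. The lists of known roles were chosen with earlier results of these data known, and Zfp42 was left out by the rule. The numbers passing, here and in the lists below, are therefore a description and were not tested. Zfp207 was at 184 to 229 CPM, Zfp217 at 77.9 to 93.7, Zfp281 at 28.2 to 40.8, Zfp143, an activator of Nanog, at 24.1 to 30.7, and Zfp296 at 18.5 to 25.3 CPM. Zfp819 ran lower, at 7.96 to 21 CPM. Zfp462 was the 1 gene of the 7 called between lines, and none was called between treatments, while Nanog itself was at 3.54 CPM at most.

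Among 10 listed differentiation genes in the files, 6 passed the count threshold, and they include the widest ratios over libraries of the 188 genes, those of Zfp703 and Zfp423. Both are described above, and Zfp704, called between lines only, was at 118 to 190 CPM. Zfp516, linked to brown fat, was at 52.0 to 69.9 CPM, Zfp750, whose human counterpart drives epidermal differentiation, at 15.5 to 25.5 CPM, and Zfp238, now Zbtb18, at 7.59 to 14.5 CPM. Only Zfp423 and Zfp703 of the 6 were called between treatments. Below the threshold, Zfp521, an antagonist of Zfp423 in fat precursors, was at 2.67 to 8.90 CPM, and Zfp503 ranged over 0.513 to 14.7 CPM. Also below it were Zfp536, at 2.53 to 10.8 CPM, and Zfp467, at 1.07 to 4.22 CPM. Of the 9 listed genes tested, 2 were called higher and 3 lower in pre3, some of them below the threshold, beside 30.2% of all genes tested.

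Of the listed genes whose proteins handle RNA, ribosomes or protein turnover, 12 of 12 in the files passed the threshold. Zfp598, the ubiquitin ligase that marks collided ribosomes, was at 109 to 134 CPM. Zfp706 was at 215 to 275 CPM, Zfp91, a ubiquitin ligase, at 122 to 153, Zfp326, part of a complex that links elongation and splicing, at 62.8 to 78.1, and Zfp622, needed for 60S ribosome maturation, at 42.6 to 69.8 CPM. Others were lower, with Zfp451 at 23.3 to 41.0, Zfp346 at 24.6 to 35.1, Zfp830 at 19.7 to 30.8 and Zfp593 at 14.4 to 26.8 CPM. Zfp36 and Zfp106, described above, were the called ones of the 12, both between treatments and between lines. Of the 9 chromatin genes listed in the files, 9 passed, and 2 were called, between lines only. These were Zfp532, which sits with Zfp592 and Zfp687 in a ZMYND8 complex, at 89.6 to 154 CPM, and Zfp644, a partner of G9a and GLP, at 43.6 to 62.2 CPM. Zfp592 was at 42.5 to 59.0 CPM and Zfp687 at 38.8 to 49.2 CPM, neither of them called.

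The silencing machinery that KRAB proteins recruit varied widely in level. Trim28 was at 617 to 713 CPM and Setdb1 at 137 to 185 CPM. Others on the list of cofactors were lower, such as Dnmt3b at 25.6 to 53.4, Suv39h2 at 21.5 to 25.6 and Atf7ip2 at 4.26 to 14.1 CPM. Of 34 listed cofactor genes tested, 1 was called higher and 0 lower in siTet1 against control siRNA, namely Trim24 (0.62, edgeR adjusted p = 0.0400). Against untransfected cells 0 were higher and 2 lower in siTet1, among the 2 Uhrf1, which reads hemimethylated DNA (-0.37, edgeR adjusted p = 0.0413). Between lines 4 were higher in pre3 (Ehmt2, Dnmt1, H3f3a and Cbx3, at 0.30 to 0.37) and 7 lower. Of all genes tested, 1.58%, 6.55% and 30.2% were called in these comparisons, in the order given. The largest of the 7 were Trim24 (-0.84), the de novo methyltransferase Dnmt3b (-0.72) and the Setdb1 partner Atf7ip (-0.70). The median log2 difference of the 34 was -0.05 for siTet1 against control siRNA, -0.04 against untransfected and -0.01 between lines, beside all-gene medians of 0.00, 0.01 and 0.00. Neither Trim28 nor Setdb1 was called in any of the 4 comparisons.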

How the data were processed

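The data are 6 RNA sequencing libraries made with a TruSeq kit, per the labels' protocols. For each gene the authors deposited an expected count (RSEM 1.1.21 on mm9, per the submitters' processing notes) and a fraction, the estimated share of transcripts, rescaled here to TPM. Aligner settings and filters are not given in the sources used here. A whole-series TPM table was not used, since it repeats the fractions under column names that do not match the samples.

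After rounding, the expected counts went into the two-sided quasi-likelihood test of edgeR 4.0.16 (R 4.3.3) with TMM scaling. Low genes were removed by filterByExpr on treatment (minimum count 10), leaving 11048, over which p was adjusted by Benjamini-Hochberg; a call needed an adjusted value under 0.05. Line and treatment were the terms, on all 6 libraries (2 residual degrees of freedom, 23.2 prior degrees of freedom borrowed across genes, common dispersion 0.00755). Every adjusted p is from edgeR unless another tool is named, and SE is the log2 difference over the square root of F. The interaction models pooled, per line, control siRNA with untransfected (2 controls) or siTet1 with control siRNA (2 transfected libraries). Exact permutation of 2 against 2 libraries cannot go below p = 0.333. The script was tested on simulated counts.

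Replicate 1 of each treatment is pre2-2 and replicate 2 is pre3, so the line is the block and its pairing comes from the labels. Deviations of same-line libraries from their group means correlated at 0.667 to 0.772 over genes, which are not independent replicates.

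KRAB A boxes were found with a profile built from 116 sequence windows (pyhmmer 0.12.3, E under 0.0001) in GENCODE M21 proteins. Gene order and promoters came from RefSeq, GRCm38.p6, a later build than that of the counts, so promoters serve as sequence only; 187 of 188 genes matched.

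The genes, lists and naming rule were chosen with earlier results of these data known. Named are all genes called between treatments, the 10 largest calls per direction between lines, the 8 highest, those beside the threshold, those beyond 1.5 interquartile ranges from the quartiles, and those on lists of known roles. Other genes, such as the steadiest ones, those with a ratio of 3 or more, those at 0, smaller line calls and interaction genes at an unadjusted p under 0.05, were named after their values were seen. Alternatives were RLE factors, library totals, no filter, a minimum count of 20, DESeq2 1.42.0, limma 3.58.1 on log2 CPM, models with and without the line, pooled controls, each library left out, and membership at 10 or 50 counts. Counting floors cover counting error only. The result of 1 listed cofactor gene is not reported here.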

Additional observations from a re-analysis of the deposited data

How the results depend on the processing

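Each count of called Zfp genes was repeated under the alternatives. For siTet1 against control siRNA (1 gene), DESeq2, limma, a minimum count of 20 and no replicate block for the line each gave 0, no filter gave 2, and the replicate block on the groups compared only gave 7; leaving out 1 library gave 0 to 7. For control siRNA against untransfected (0 genes), no filter gave 1, Zfp9, and leaving out 1 library gave 0 to 2. For siTet1 against untransfected (5 genes), DESeq2 and no replicate block gave 0, limma gave 3, and leaving out 1 library gave 0 to 13. For pre3 against pre2-2 (25 genes), DESeq2 gave 10 and leaving out 1 library gave 15 to 31. RLE factors gave 1, 0, 5 and 24 genes in the order above, and library totals alone 1, 0, 5 and 26. Both interactions stayed at 0 in each alternative that could be fitted; the line by siTet1 model could not be fitted without a siTet1 library, nor the line by transfection model without an untransfected one. Of the 45 log2 differences recomputed (genes called, and at most the 5 farthest per side beyond the fences of a treatment comparison), none changed sign under the alternatives run; other named values were not recomputed. The causes of these changes were not tested. Each treatment had 2 libraries, leaving out 1 assumes that the lone sample varies like the others, and at a median mean count of 50.7 small differences of single genes were not detectable.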
